A study of Mus musculus with 3 samples.

Results

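The genes of intestinal cell junctions were examined in mouse jejunum lacking Sox4 in the epithelium: 46 of 20738 measured genes. They were chosen by symbol in the array annotation and not by their values, though with earlier results of these data known. They comprised 25 claudins, 10 other tight junction genes and 11 genes of adhesive junctions, carried by 74 array features. The claudins were Cldn1 to Cldn20, Cldn22 to Cldn24 and the genes annotated as Cldn26 and Cldn27, whose current symbols are Tmem114 and Tmem235. In all, 37 of the 46 genes rested on 1 feature.

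The samples were total RNA of whole proximal jejunum from 3 mice with Sox4 knocked out through villin-Cre, a recombinase active in the intestinal epithelium. Each was hybridised in Cy5 against RNA of wild-type proximal jejunum in Cy3, on 1 of 3 arrays that shared a slide. Sox4 is a transcription factor, and the series concerns its role in proliferation, in differentiation and in DNA methylation of the gut lining. Strain, age and sex of the mice, and whether the wild-type RNA was pooled, are unknown here. Whole jejunum also holds muscle, vessels, nerves, immune cells and serosa, in which villin-Cre is not active. Values are log2 of knockout over wild-type signal, so that 0 is no difference, and means are given with the SD over n = 3 arrays. In whole tissue, fewer cells of a type and less RNA per cell cannot be told apart. A ratio holds no expression level, so the tissue could not be checked against its markers, and features near background could not be set aside.

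Tight junctions seal the space between neighbouring epithelial cells near their apex. Claudins are the membrane proteins that form their strands: some close the space, and others form channels through which ions and water pass. Occludin, the MARVEL proteins and the JAM proteins lie in the same membrane region, and the ZO proteins and cingulin tie the strands to the actin cytoskeleton. Below them, E-cadherin and the desmosomal cadherins, with their plaque proteins, hold the cells together. In the small intestine claudin 2 is known from the crypts and claudin 15 as the channel through which sodium returns to the lumen.

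None of the 46 junction genes passed limma's test at an adjusted p of 0.05, where 68 of 20738 genes, or 0.328%, did. The lowest adjusted p among them was 0.0703, that of Cldn8. At an unadjusted p under 0.05 there were 16 of the 46 (34.8%), against 26.3% of all genes, and 23 of the 46 had the same sign on all 3 arrays, against 50.6% of all genes. Both counts lay near the background and mark no shift of junction genes as a whole. The median of the 46 mean ratios was -0.02, beside -0.03 for all genes.

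Of the 25 claudins, 7 had an unadjusted p under 0.05 above 0 and 4 below 0, beside 12% and 14.3% of all genes, and their median was 0.08 with array medians of 0.03, 0.20 and 0.07. The 10 other tight junction genes had a median of -0.21, and 7 of them had a mean below 0, as did 11107 of all 20738 genes. Of these 10 genes, 2 had an unadjusted p under 0.05, both below 0. Among the 11 adhesive junction genes the median was -0.01, and 3 had an unadjusted p under 0.05, all above 0. The median size of the mean ratio was 0.32 for claudins and 0.21 for all genes, and the median SD over arrays was 0.28 and 0.22. The medians of both size and spread were thus larger for claudins, which was not tested.

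**Figure D1:**
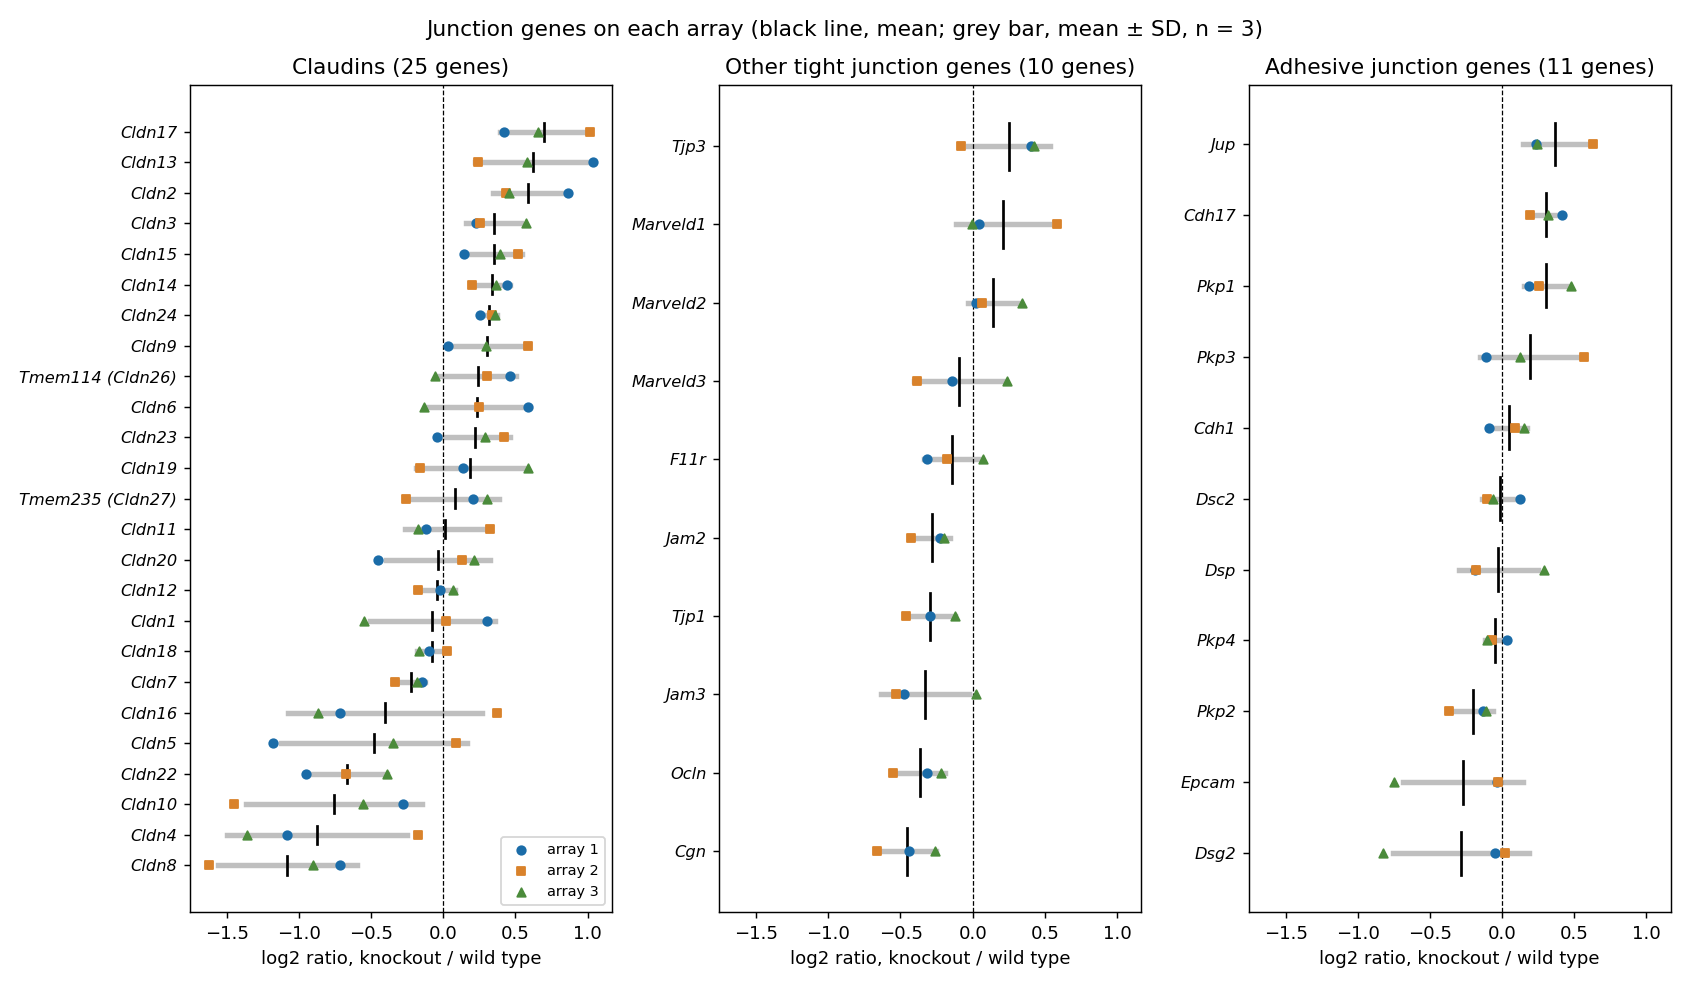
Log2 ratio of knockout over wild type (horizontal axis) for each of the 46 junction genes on arrays 1, 2 and 3 (coloured points), in 3 panels by class, with the mean (black line) and mean ± SD (grey bar). Claudin means run from -1.08 for Cldn8 to 0.70 for Cldn17, while the means of the other classes lie between -0.46 and 0.37.

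Among the claudins that form channels, Cldn2 and Cldn15 lay above wild type on every array. Cldn2, a channel for sodium and water, had ratios of 0.87, 0.43 and 0.46 on arrays 1, 2 and 3 (mean 0.59 ± 0.24, 1.5-fold, adjusted p = 0.0882). Its 2 features were both above 0 on every array and averaged 0.38 ± 0.32 and 0.79 ± 0.20. Cldn15 had 0.14, 0.52 and 0.39 (mean 0.35 ± 0.19, 1.28-fold, adjusted p = 0.164). Both genes thus had the same sign throughout without passing the threshold, with 95% intervals of 0.24 to 0.93 for Cldn2 and 0.03 to 0.67 for Cldn15.

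The other channel-forming claudins lay on both sides of wild type. Cldn10, whose isoforms pass cations or anions, had -0.28, -1.45 and -0.55 (mean -0.76 ± 0.61, adjusted p = 0.133), below 0 on every array and lowest on array 2. Cldn17, an anion channel, had 0.42, 1.02 and 0.66 (mean 0.70 ± 0.30, 1.62-fold, adjusted p = 0.0822), the highest mean of the 46 genes. Cldn16, which with Cldn19 carries magnesium and calcium in the kidney, had -0.72, 0.37 and -0.87, with array 2 on the other side of 0. Cldn19 averaged 0.19 ± 0.38 and Cldn12, a claudin of calcium uptake, -0.04 ± 0.12.

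Cldn2 lies on the X chromosome, and the knockout and wild-type RNA differed in sex-linked genes on every array: Xist, the RNA of the inactive X, averaged 1.71 ± 0.18 and the Y-linked Eif2s3y -7.28 ± 0.25. The 824 X-linked genes measured had a median ratio of -0.06, beside -0.03 for 19882 autosomal genes. A median over many genes does not show the part of sex in a single gene. In Cldn2, as in every gene here, that part cannot be told apart from that of genotype.

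Of the claudins that tighten the junction, Cldn3 lay above wild type, and Cldn4, Cldn7 and Cldn8 below, on every array. Cldn3, a sealing claudin of the gut, had 0.23, 0.26 and 0.57 (mean 0.35 ± 0.19, adjusted p = 0.163). Cldn7, which lies along the lateral membrane and binds Epcam, had -0.15, -0.33 and -0.18 (mean -0.22 ± 0.10, 95% interval -0.51 to 0.06, adjusted p = 0.270). Cldn7 was thus close to wild type, and its interval leaves out a fall of more than 0.51.

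The lowest means of all 46 genes were those of Cldn8 and Cldn4. Cldn8, a barrier claudin of colon and distal nephron, had -0.71, -1.62 and -0.91 (mean -1.08 ± 0.48, 2.11-fold lower, adjusted p = 0.0703). Cldn4, its partner in the distal nephron, had -1.09, -0.17 and -1.36 (mean -0.87 ± 0.62, 1.83-fold lower, adjusted p = 0.110). The genes differed in the place of array 2, which held the ratio farthest below 0 for Cldn8 and the one nearest to 0 for Cldn4. The 2 Cldn4 features had the same arrangement, with -1.27, -0.24 and -1.40 for one and -0.90, -0.11 and -1.33 for the other. Without array 2, Cldn4 averaged -1.22 (limma adjusted p = 0.0710).

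Markers of other cells also differed between arrays. For 10 tuft cell markers, the array medians were -1.06, 0.55 and -0.37, with array 2 highest, as it was for Cldn4. The 12 enteroendocrine markers had medians of -0.89, -1.30 and -0.82, of which 7 were below 0 on every array and 5 passed, beside 27.3% and 0.328% of all genes. M cell and dome epithelium markers had 0.01, 0.29 and 0.14, and pancreatic acinar markers had -0.73, -0.49 and -0.80. Array 2 was highest in both of these lists too, so this place of array 2 was not particular to tuft cell markers. These 4 lists were drawn up after the claudin values were seen. Of 5 markers of mesothelium, the cell layer that covers the gut, 3 were below 0 on every array, and their array medians were -0.05, -1.55 and -1.05, with array 2 lowest as for Cldn8 and Cldn10. The part of these cell types in the claudin ratios was not tested.

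Single arrays lay apart in some of these genes. In Cldn8 and Cldn10 array 2 lay at least 0.7 below both other arrays, as in 2.27% of all genes, and in Cldn4 and Cldn16 at least 0.7 above both, as in 2.70%. Cldn5 lay apart on array 1, which was at least 0.7 below the others in 1.86% of all genes.

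Cldn5, the sealing claudin of endothelium, had -1.18, 0.09 and -0.35 (mean -0.48 ± 0.64, adjusted p = 0.275), with array 1 farthest below 0. The 12 endothelial markers had array medians of -0.34, 0.10 and 0.11, also lowest on array 1. Of them 2 were below 0 on every array, beside 27.3% of all genes. The 4 lymphatic endothelial markers measured had -0.13, 0.45 and -0.18. The part of either in the Cldn5 ratio was not tested. Cldn11, a claudin of myelin, had -0.12, 0.33 and -0.18, on both sides of 0. For 5 markers of glia and Schwann cells the array medians were 0.03, 0.37 and 0.03.

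Several claudins known mainly from other organs also had ratios away from 0. Cldn22 was below 0 on every array, at -0.95, -0.67 and -0.39 (mean -0.67 ± 0.28, adjusted p = 0.0828). Cldn13, a claudin of mice with no human counterpart, had 1.04, 0.24 and 0.58 (mean 0.62 ± 0.40, adjusted p = 0.113), and Cldn14, known from the inner ear and kidney, had 0.44, 0.20 and 0.37 (mean 0.34 ± 0.12). Cldn24 had the smallest SD of the 46 genes, at 0.26, 0.34 and 0.36 (mean 0.32 ± 0.05, adjusted p = 0.153). Whether these genes gave signal above background could not be read from ratios, and each rested on 1 feature. The remaining claudins had unadjusted p-values of 0.05 or more: Cldn9 was above 0 on every array (0.30 ± 0.28), and Cldn1, Cldn6, Cldn18, Cldn20, Cldn23, Tmem114 and Tmem235 had means from -0.08 to 0.24 with signs that differed between arrays.

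**Figure D2:**
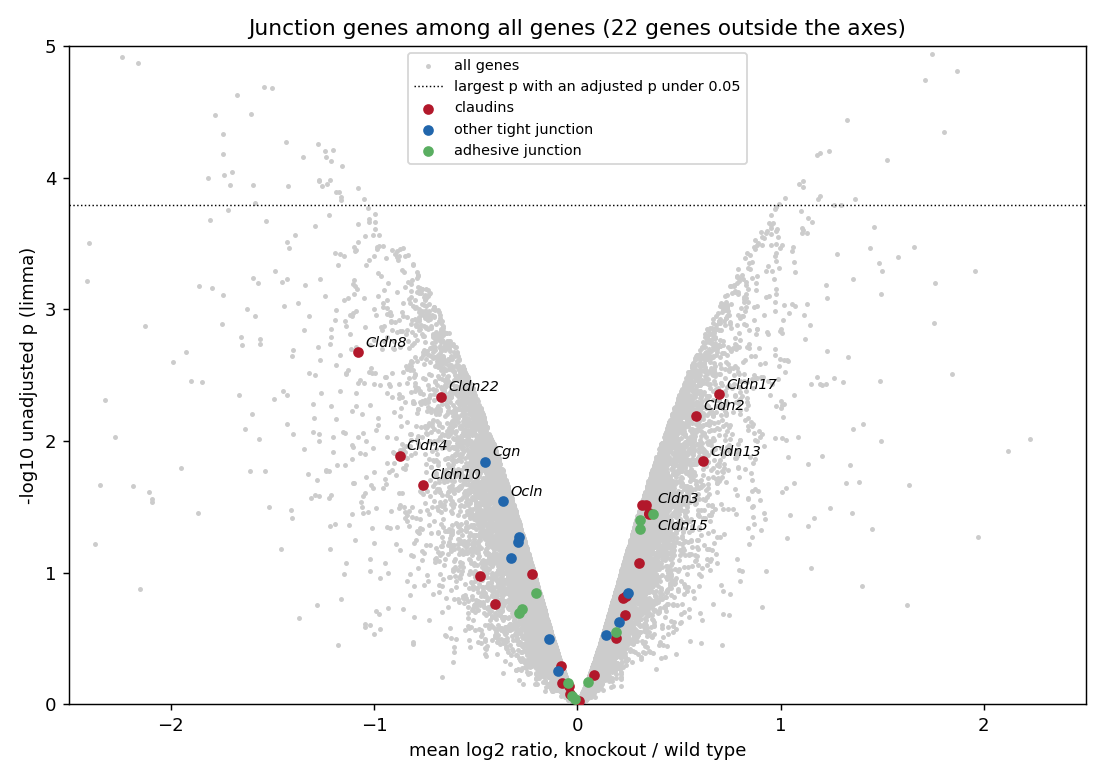
Mean log2 ratio of knockout over wild type (horizontal axis) against -log10 of limma's unadjusted p (vertical axis) for all genes (grey) and the 3 classes of junction genes (colours). The dotted line marks the largest p with an adjusted p under 0.05; all 46 junction genes lie below it, and 22 genes fall outside the axes.

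Several claudins lie side by side in the genome, and some neighbours had opposite signs. In the gene order of mouse assembly GRCm38.p6, Cldn3 is next to Cldn4, Cldn17 next to Cldn8 and Cldn22 next to Cldn24, with no coding gene between them. Cldn3 exceeded Cldn4 on each array, by 1.31, 0.43 and 1.93 log2 units. Cldn17 exceeded Cldn8 by 1.13, 2.64 and 1.56, and Cldn24 exceeded Cldn22 by 1.21, 1.01 and 0.74. In all 3 pairs 1 gene was above wild type and its neighbour below it on every array. The pairs were picked out after the values were seen, so these differences are a description without a test. Of the other adjacent pairs, Ocln was below and Marveld2 above wild type on every array. The means of Cldn6 and Cldn9 were both above 0 and those of Cldn1 and Cldn16 both below 0, and within each of these pairs the order changed between arrays.

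The 250 bases before the gene start are shown for Cldn3 and Cldn4 and for Cldn22 and Cldn24, the opposed claudin neighbours for which both promoters were at hand, and for Cldn2, the X-linked channel gene. They come from RefSeq (GRCm38.p6), run 5′ to 3′ along the gene, and carry in capitals each match to 4 motifs searched on both strands: AACAAAG and AACAAT for Sox factors, CAGGTG, the E-box that Snail and Zeb factors bind, and TTTATNG for Cdx factors.
Cldn3, chr5:134985964-134986213 (plus strand): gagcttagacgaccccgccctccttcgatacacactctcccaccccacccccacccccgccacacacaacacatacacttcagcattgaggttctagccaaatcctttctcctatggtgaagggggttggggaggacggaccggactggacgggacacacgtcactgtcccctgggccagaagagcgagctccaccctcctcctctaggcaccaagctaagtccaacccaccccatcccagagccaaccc
Cldn4, chr5:134946935-134947184 (minus strand): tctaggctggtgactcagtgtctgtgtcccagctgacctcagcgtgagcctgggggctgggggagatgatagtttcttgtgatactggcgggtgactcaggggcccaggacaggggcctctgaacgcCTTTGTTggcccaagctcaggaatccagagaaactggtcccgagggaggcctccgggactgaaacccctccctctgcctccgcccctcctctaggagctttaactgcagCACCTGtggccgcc
Cldn22, chr8:47824232-47824481 (plus strand): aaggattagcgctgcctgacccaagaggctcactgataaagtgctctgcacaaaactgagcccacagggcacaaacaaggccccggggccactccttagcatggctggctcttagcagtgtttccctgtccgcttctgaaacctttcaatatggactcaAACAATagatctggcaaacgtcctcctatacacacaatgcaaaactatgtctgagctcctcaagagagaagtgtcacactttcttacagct
Cldn24, chr8:47821893-47822142 (plus strand): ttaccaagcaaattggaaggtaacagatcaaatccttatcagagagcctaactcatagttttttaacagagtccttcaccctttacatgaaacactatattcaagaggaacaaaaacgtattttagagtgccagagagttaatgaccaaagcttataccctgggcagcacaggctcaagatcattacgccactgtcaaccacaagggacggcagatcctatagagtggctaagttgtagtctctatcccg
Cldn2, chrX:139800558-139800807 (plus strand): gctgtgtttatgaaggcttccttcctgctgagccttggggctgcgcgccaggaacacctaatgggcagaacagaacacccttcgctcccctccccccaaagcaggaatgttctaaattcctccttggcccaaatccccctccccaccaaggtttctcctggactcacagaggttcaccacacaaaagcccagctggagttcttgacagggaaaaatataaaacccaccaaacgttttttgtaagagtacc
Cldn4 held a Sox match starting 123 bases and an E-box starting 14 bases before the gene start, and Cldn22 held a Sox match 91 bases before it. None of the motifs was found in the windows of Cldn3, Cldn24 or Cldn2.

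Promoters of 31 of the 46 genes were matched, 43 windows in all because some genes have several starts. None was at hand for Cdh1, Cdh17, Cldn8, Cldn9, Cldn13, Cldn23, Dsc2, Dsg2, Jam2, Jam3, Marveld3, Pkp1, Pkp2, Pkp3 and Tmem235. The motifs were therefore not searched in these genes. A Sox match was found in 4 of the 43 windows (9.30%), those of Cldn4, Cldn14, Cldn16 and Cldn22, against 13.8% of all 32851 promoters. The mean ratios of these 4 genes were -0.87, 0.34, -0.40 and -0.67. The E-box was found in 10 windows (23.3%), of 9 genes, against 17.2% of all. Of these genes, Cldn4 (-0.87), Ocln (-0.36), Epcam (-0.27), Cldn7 (-0.22), F11r (-0.14) and Pkp4 (-0.05) had means below 0. The means of Cldn14 (0.34), Tjp3 (0.25) and Cldn6 (0.235) were above 0. The Cdx motif was found in 2 windows (4.65%), those of Cldn16 and Epcam, against 9.81%. Only the E-box had a larger share in these windows than in all promoters, which was not tested. The median number of CpG sites, where DNA methylation can occur, was 9 in these windows and 6 in all promoters. Among the printed windows Cldn3 held 9 CpG sites, Cldn4 7 and the others 4 each.

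Among the other tight junction genes, Cgn, Ocln and Tjp1 lay below wild type on every array. Cgn, cingulin, which links the junction to actomyosin, had -0.44, -0.66 and -0.26 (mean -0.46 ± 0.20, 1.37-fold lower, adjusted p = 0.114). Ocln, occludin, had -0.32, -0.55 and -0.22 (mean -0.36 ± 0.17, 1.29-fold lower, adjusted p = 0.148), and both of its features were below 0 on all arrays. Tjp1, the scaffold protein ZO-1, had -0.30, -0.46 and -0.12 (mean -0.29 ± 0.17, 95% interval -0.60 to 0.02, adjusted p = 0.206). In all 3 genes array 2 was lowest and array 3 nearest to 0, and none passed the threshold. The share of all genes below 0 on every array was 27.3%, and of these 10 genes 4 were, the last being Jam2.

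Tjp3, or ZO-3, a scaffold protein of epithelia, did not follow Tjp1, with 0.41, -0.08 and 0.42 (mean 0.25 ± 0.28, adjusted p = 0.324). The adhesion molecules of the JAM family differed in their number of features, with 3 for Jam2 and 1 each for Jam3 and F11r. Jam2, found in endothelium and elsewhere, had -0.23, -0.43 and -0.20 as the mean of 3 features (-0.28 ± 0.13, adjusted p = 0.197). Its features averaged -0.55, -0.41 and 0.10, so 1 of them lay on the other side of 0. Jam3 had -0.48, -0.53 and 0.02 (mean -0.33 ± 0.30), and F11r, the epithelial JAM-A, had -0.32, -0.18 and 0.08 (mean -0.14 ± 0.20, adjusted p = 0.515).

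The MARVEL genes other than occludin had means between -0.10 and 0.21. Marveld2, tricellulin, which closes the corners where 3 cells meet, had 0.02, 0.06 and 0.35 (mean 0.14 ± 0.18, adjusted p = 0.492). Marveld1 averaged 0.21 ± 0.33 with 0.58 on array 2, and Marveld3 averaged -0.10 ± 0.31 with signs that differed between arrays. The 2 Marveld3 features averaged 0.06 and -0.25.

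Of the adhesive junction genes, Jup, Cdh17 and Pkp1 lay above wild type on every array. Jup, plakoglobin, a plaque protein of both desmosomes and adherens junctions, had 0.23, 0.63 and 0.24 (mean 0.37 ± 0.23, 1.29-fold, adjusted p = 0.164). Cdh17, the cadherin of liver and intestine, had 0.41, 0.19 and 0.32 (mean 0.31 ± 0.11, 1.24-fold, adjusted p = 0.171). Pkp1, a desmosomal plakophilin best known from skin, had 0.19, 0.25 and 0.48 (mean 0.31 ± 0.15, adjusted p = 0.185). Above 0 on every array were 3 of 11 genes here and 23.2% of all genes, so this share is close to the background. The other plakophilins had means of -0.20 for Pkp2, 0.19 for Pkp3 and -0.05 for Pkp4, and Pkp2 was below 0 on every array.

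Cdh1, E-cadherin, was measured by 10 features. They ran from -0.24 to 0.01 on array 1, from 0.05 to 0.13 on array 2 and from 0.11 to 0.25 on array 3. The array means were -0.09, 0.09 and 0.15 (mean 0.05 ± 0.12, 95% interval -0.24 to 0.34, adjusted p = 0.802). The features thus agreed within an array, with SDs of 0.07, 0.03 and 0.04, and the difference between arrays was the larger one. Whether these 10 features are separate probes or copies of the same probe is unknown here. The interval leaves out a change of Cdh1 beyond 1.27-fold upward or 1.18-fold downward.

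Dsp, desmoplakin, which ties desmosomes to keratin filaments, had 11 features and array means of -0.19, -0.18 and 0.29 (mean -0.03 ± 0.27, adjusted p = 0.918). On array 3, 10 of the features lay between 0.34 and 0.50 and the remaining one, feature 29996, at -1.09. Without that feature, a choice made after seeing it, the array means were -0.22, -0.20 and 0.43. These 10 features thus lay above wild type on array 3 and below it on the others. Whether they are separate probes or copies of the same probe is unknown here. Because feature 29996 had the opposite sign on array 3, the direction of Dsp on that array is unsettled.

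Epcam and Dsg2 were likewise set apart on array 3, but downward. Epcam, the epithelial adhesion molecule that binds claudin 7, had -0.03, -0.03 and -0.75 (mean -0.27 ± 0.42, adjusted p = 0.379). Dsg2, the widespread desmosomal cadherin, had -0.05, 0.02 and -0.83 (mean -0.28 ± 0.47, adjusted p = 0.391). All 3 Dsg2 features were lowest on array 3, at -0.43, -1.14 and -0.91. In 1.83% of all genes array 3 lay at least 0.7 below both other arrays. Dsc2, the partner cadherin, had 0.13, -0.11 and -0.06 and was not set apart (mean -0.01 ± 0.12). On arrays 1 and 2 both genes were within 0.05 of wild type, but for Dsg2 this is the mean of features that disagreed, at 0.37, -0.14 and -0.39 on array 1 and 0.42, -0.21 and -0.14 on array 2.

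**Figure D3:**
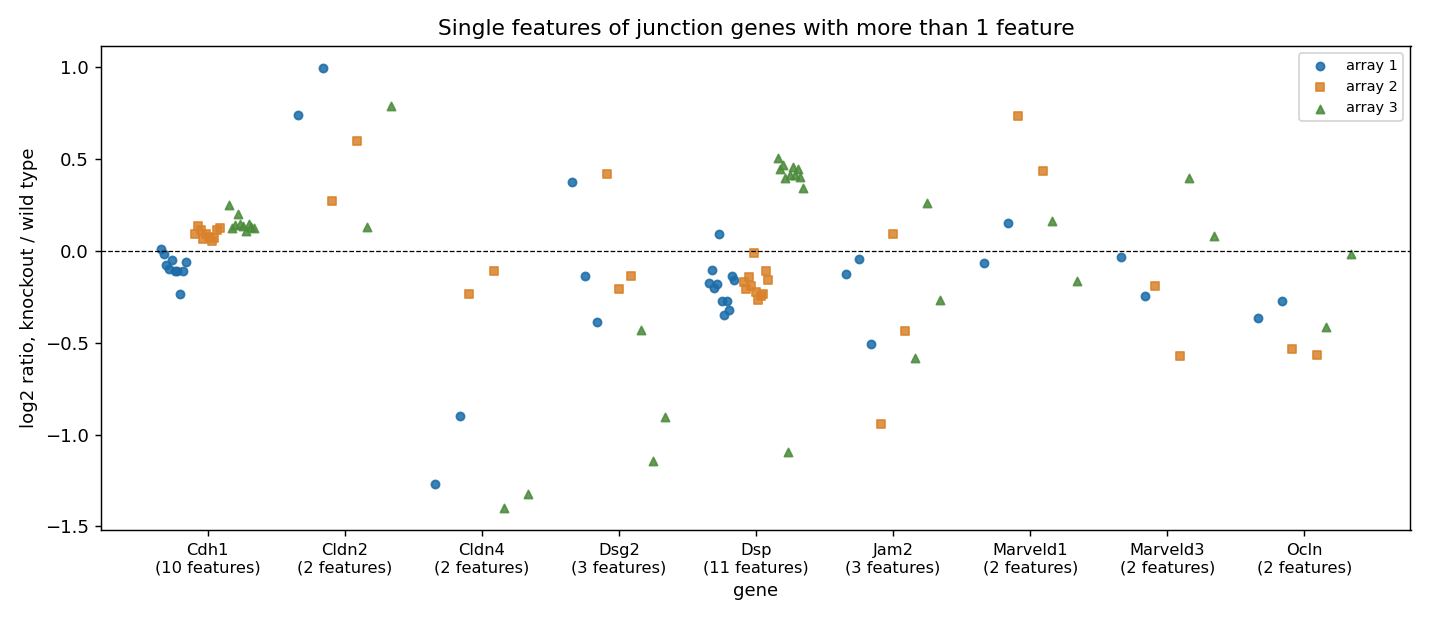
Log2 ratio of knockout over wild type (vertical axis) of each single feature for the 9 junction genes with more than 1 feature (horizontal axis), by array (colour and symbol). The 10 Cdh1 features lie close together on each array, 1 Dsp feature lies at -1.09 on array 3 where the other 10 are above 0.3, and the 3 Dsg2 features all lie lowest on array 3.

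Related genes outside the chosen symbols were examined in 8 lists, and none of their members passed the threshold. Of 28 tight junction partners, 3 had an unadjusted p under 0.05 above 0 and 6 below 0, beside 12% and 14.3% of all genes. Their median was -0.11, with array medians of -0.10, -0.10 and -0.20. Pmp22, a claudin-like protein of myelin and epithelia, had -0.88, -0.67 and -1.34 (mean -0.96 ± 0.35, adjusted p = 0.0663). Ildr1, which recruits tricellulin to 3-cell corners, had -1.32, -0.41 and -1.26 (mean -0.998 ± 0.51, adjusted p = 0.0793), nearest to 0 on array 2 as Cldn4 was. Its relatives Lsr and Ildr2, named after their values were seen, were above 0 on every array (0.30 ± 0.05 and 0.21 ± 0.07). Cldn34a, a claudin gene outside the chosen symbols, averaged 0.65 ± 0.24.

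Among 16 genes of the adherens junction and nectins, 1 had an unadjusted p under 0.05 above 0 and 3 below 0. The shares of all genes were 12% and 14.3%. Vcl, vinculin, averaged 0.43 ± 0.10, while the neural catenins Ctnnd2 and Ctnna2 averaged -0.73 ± 0.31 and -0.46 ± 0.10 and Cdh2, N-cadherin, -0.49 ± 0.23. Of the epithelial partners of E-cadherin, Ctnnb1 averaged 0.18 ± 0.04 and Ctnna1 -0.01 ± 0.06, both chosen after their values were seen. Vcl, Ctnnd2, Ctnna2 and Cdh2 were named for the smallest p of the list, so no comparison is drawn with them. Of 24 polarity genes, 2 had such a p in each direction, beside the same shares of all genes, and Pard6g averaged -0.56 ± 0.13.

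Of 13 genes in the list of brush border and other epithelial cadherins, 5 had an unadjusted p under 0.05, all above 0, beside 12% of all genes with such a p above 0. The list median was 0.22, with 7 means above 0 and 6 below, and 3 members were below 0 on every array (Anks4b, Cdhr4 and Cdh6, named after seeing the values). Cdhr5 and Cdhr2, the cadherins that link neighbouring microvilli, averaged 0.68 ± 0.42 (adjusted p = 0.105) and 0.36 ± 0.22. Cdhr2 was chosen after its value was seen. The genes of their cytoplasmic partners did not share a sign: Ush1c averaged 0.47 ± 0.17 and Myo7b 0.44 ± 0.17, but Anks4b -0.30 ± 0.15. Of 16 other desmosome and keratin genes, 3 had such a p in each direction, beside 12% of all genes above 0 and 14.3% below. Among them were Krt19 at 0.83 ± 0.21 (adjusted p = 0.0640) and Perp, a desmosomal membrane protein, at -0.40 ± 0.12. Of 19 connexins and pannexins, 2 lay above 0 and 3 below 0 by the same p, beside the same shares of all genes. Gja1, connexin 43, averaged -0.42 ± 0.12.

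Of 7 measured genes for surface proteases and protease inhibitors, 2 had an unadjusted p under 0.05, beside 26.3% of all genes. They were Tmprss2, which averaged 0.49 ± 0.35, and Hpn, hepsin, at -0.48 ± 0.25. Among 27 transcription factors and splicing regulators of epithelial junction genes, 5 had such a p above 0 and 4 below 0. The shares of all genes were 12% and 14.3%. Elf3 averaged 0.88 ± 0.08 (adjusted p = 0.0543), Gata4 0.62 ± 0.12 and Klf5 0.64 ± 0.21, whereas Grhl1, a grainyhead factor, averaged -0.76 ± 0.21 (adjusted p = 0.0672). Zeb2, a repressor of E-cadherin, averaged -0.62 ± 0.30 (adjusted p = 0.0923), named after its value was seen, with Cdh1 itself at 0.05. Other such repressors in the list averaged -0.17 ± 0.23 for Zeb1, -0.34 ± 0.44 for Snai2 and 0.11 ± 0.13 for Snai1, also named after seeing them. Their part in the Cdh1 ratio was not tested.

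Of 11 epithelial markers, 7 were above 0 on every array, as Cldn2, Cldn3 and Cldn15 were and as 23.2% of all genes were, and Krt18 and Cdx1, named after their values were seen, had means of -0.12 and -0.09. The list had array medians of 0.16, 0.33 and 0.32. None passed limma's test, and 4 had an unadjusted p under 0.05, all above 0, beside 12% of all genes. The villin gene Vil1, whose promoter drives the recombinase, averaged 0.48 ± 0.14 (adjusted p = 0.0931). Of 7 adipocyte markers, 4 passed the threshold below 0 and 6 were below 0 on every array (list median -2.09). Of 5 erythroid markers, 2 passed below 0 and all 5 were below 0 on every array (median -1.34). Of all genes, 0.222% passed below 0 and 27.3% were below 0 on every array. The part of these differences in the junction gene ratios was not tested.

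**Figure D4:**
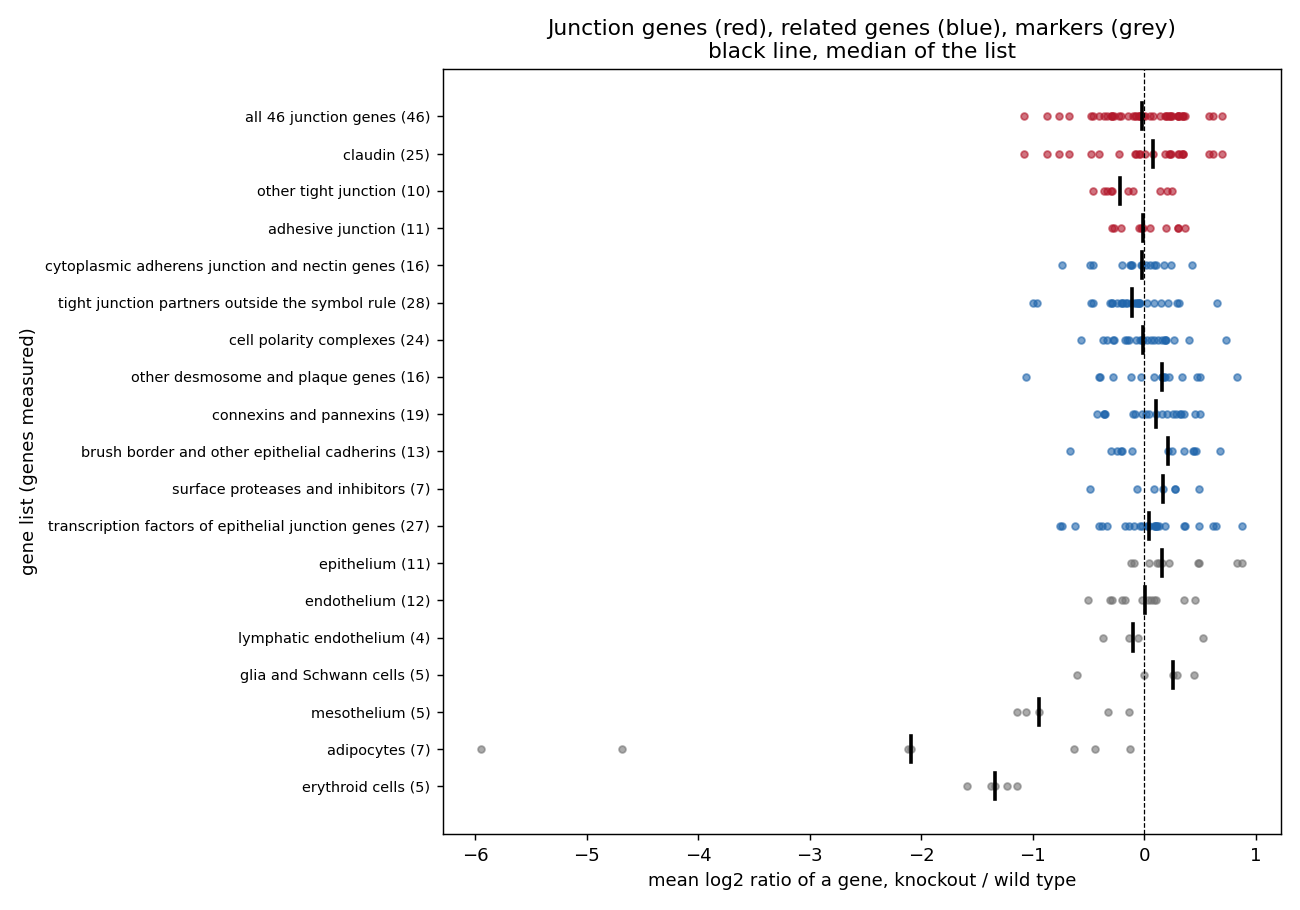
Mean log2 ratio of knockout over wild type (horizontal axis) of each gene (points) in the junction classes (red), 8 lists of related genes (blue) and 7 lists of cell type markers (grey), with the median of each list (black line). Junction and related lists have medians between -0.21 and 0.22, and the mesothelial, adipocyte and erythroid markers have medians of -0.94, -2.09 and -1.34.

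As a check of the labels, Sox4 itself had -0.66, 0.18 and -0.46 (mean -0.31 ± 0.44, adjusted p = 0.332). The array labelled knockout 2 was thus not below wild type for the mean of the 3 Sox4 features, and directions on it rest on the label. Array 2 was also the one that stood apart for Cldn4, Cldn8, Cldn10 and Cldn16. Leaving it out changed the sign of 5 of the 46 means, all with new values within 0.15 of 0, and brought none past the threshold.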

How the data were processed

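The authors deposited log ratios of 2 channels, taken here as log2, for 62976 features on each of 3 arrays. How they were corrected and normalized, and their log base and direction, is not given in the sources used. Base 2 was taken as the usual unit, and ratios were read as Cy5 (knockout, per the labels) over Cy3, so all signs would turn under the opposite reading. Array medians of 0.007, 0.003 and 0.011 showed centring by the authors, and no further scaling was applied.

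Features were named by accession, symbol or synonym through a RefSeq table (GRCm38.p6): 31465 features had 1 symbol, 31511 were unnamed, and features of a gene were averaged. The ratios of all 20738 genes were set against 0 in limma 3.58.1 (R 4.3.3) (intercept, eBayes, 2 residual and 3.51 prior degrees of freedom, two-sided, Benjamini-Hochberg over all genes). If the wild-type RNA was pooled, which is unknown, variation among wild-type mice does not enter the test. With no dye swap a dye effect cannot be told apart from genotype. The 3 arrays limit the precision, and p-values measure the spread between these samples. Every member could be named, with per-array values for those with an unadjusted p under 0.05 or a known role in intestine, and of each related list up to 4 genes with the smallest p; others are marked. The members and lists were chosen with earlier results of these data known. The script was tested on simulated data. Tables were made with pandas 2.3.3 under Python 3.11.15, and figures with matplotlib 3.10.9.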

Additional observations from a re-analysis of the deposited data

How the results depend on the processing

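None of the 46 junction genes passed under any alternative: the median of features, annotation symbols as given, arrays centred on the median or scaled to equal spread, limma's robust eBayes, and each array left out. The class medians moved by less than their spread between arrays. Over all genes the count of 68 ranged from 4 to 66 with 1 array left out, at 10 without array 1, 66 without array 2 and 4 without array 3. Leaving out 1 array kept the sign of 37 of the 46 means. The ranges of the other 9 were -0.27 to 0.16 for Cldn1, -0.15 to 0.10 for Cldn11, -0.099 to 0.024 for Cldn12, -0.012 to 0.36 for Cldn19, -0.16 to 0.17 for Cldn20, -0.0835 to 0.033 for Dsc2, -0.185 to 0.0552 for Dsp, -0.26 to 0.049 for Marveld3 and -0.0265 to 0.25 for Tmem235. Near 0, signs also turned to 0.013 for Dsp with the median of features, 0.0047 for Dsp without feature 29996 (chosen after seeing the data), 0.0067 for Dsc2 with centred arrays and -0.0030 for Cldn11 with equal spread. No paired analysis was possible because all samples form 1 group. Signal over background could not be examined in ratios, which limits what can be said of claudins not known from intestine.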
